A study of Mus musculus with 18 samples.

Results

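The levels of 9 genes of resting and central T cells were measured by RNA sequencing in regulatory T cells (Treg), CD4+ T cells that express Foxp3 and restrain other immune cells. The 9 genes are Ly6c1, Igfbp4, Klf2, Tcf7, Lef1, S1pr1, Bach2, Satb1 and Il7r, out of 35275 gene identifiers in the table. They were chosen by name. Ly6c1 and Igfbp4 were picked because they were low with the Dyrk1 label, against WT, so their differences from WT are given as a description, with no test. The other 7 were chosen as known genes of resting T cells, with earlier results of these data known.

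The cells came from male mice aged 6 to 8 weeks. CD4 cells were taken on a column and then sorted by YFP fluorescence. The YFP is fused to cre and is made from the Foxp3 gene (the Foxp3-YFP-cre allele). The 5 deletion groups carried floxed alleles labelled Dyrk1, HDAC1, HDAC2, Mef2c or Mef2d together with this cre. The wild-type (WT) group carried the cre alone, so every group expressed YFP and cre from Foxp3. Each of the 6 groups had 3 libraries, which the series text calls independent biological replicates. Because the Foxp3 allele drives the cre, the deletion is directed to cells that express Foxp3, and where it took place was not tested. The sort takes all cells that express Foxp3, whatever their subset or age. The growth text also names Rcor1, which no library label carries, and the Dyrk1 label does not say whether Dyrk1a or Dyrk1b was floxed.

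T cells that have left the thymus and have not met antigen, and the central Treg that resemble them, circulate through lymph nodes. They keep the transcription factors TCF-1 and LEF-1, encoded by Tcf7 and Lef1, and the kruppel-like factor KLF2, which turns on S1pr1. S1PR1 senses sphingosine-1-phosphate and lets the cell leave the node. The IL-7 receptor carries survival signals, and BACH2 and SATB1 restrain effector genes or organise chromatin. Activation and effector differentiation lower many of these genes. Of the proteins in the labels, HDAC1 and HDAC2 are histone deacetylases, MEF2C and MEF2D are transcription factors, and DYRK1 proteins are kinases.

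The libraries held an estimated 15.9 to 24.1 M reads each. The 9 genes were well read, from about 381 reads (Ly6c1) to about 31157 reads (Satb1) per library. All 5 Treg markers were above 0 in every library, and Foxp3 ranged from 82.5 to 118 FPKM (fragments per kilobase of transcript and per M reads). The 4 T cell markers summed to 1133 to 1252 FPKM (Dyrk1), 1207 to 1222 (HDAC1) and 1240 to 1282 (HDAC2). They summed to 1214 to 1335 (Mef2c), 1122 to 1200 (Mef2d) and 1314 to 1388 FPKM (WT). By limma's test 1 of 4 fell with Dyrk1, 1 with Mef2c and 2 with Mef2d. Of all genes 6.19%, 6.06% and 7.95% fell. Their part in the 9 genes was not tested. Hdac1 averaged 31.997 ± 4.34 FPKM with the HDAC1 label and 119 ± 3.05 FPKM in WT (SD, n = 3 each). None of the other genes that the labels name fell with its own label. Hdac2 averaged 27.9 FPKM with the HDAC2 label and 28.3 FPKM in WT, and Mef2d averaged 53.4 FPKM with the Mef2d label and 41.7 FPKM in WT. Mef2c averaged 1.27 FPKM with the Mef2c label and 0.476 FPKM in WT. Its highest value in the Dyrk1 group was 8.02 FPKM (mean 3.12 ± 4.25 FPKM, SD). A fall from so low a level in WT could hardly be seen, and the part of other cell types in the Mef2c reads was not tested. Dyrk1a averaged 33.1 FPKM and Dyrk1b 11.8 FPKM with the Dyrk1 label, against 27.7 and 7.001 FPKM in WT. Dyrk1a, Dyrk1b and Mef2d rose with their own labels by limma's test, described below (adjusted p = 0.0352, 0.000679 and 0.00718). A wrong label and a deletion that leaves the reads of the gene cannot be told apart here, and the groups are named below by their labels only. In 3 libraries the 8 B cell markers stood more than 1 log2 unit above the median of all 18 libraries. They were replicate 1 of the Dyrk1, Mef2d and Mef2c labels, with mean log2(FPKM + 1) of 5.46, 4.42 and 3.996, and the highest of the other 15 libraries was 3.47. In sorted bulk cells, fewer cells of a type and less RNA per cell cannot be told apart.

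With the Dyrk1 label Lef1, Satb1 and Tcf7 fell. With the Mef2c label Klf2 and Lef1 fell and Il7r rose. Satb1 rose with the Mef2d label, and Klf2 fell with the HDAC1 label. Bach2 rose with the HDAC2 label. Satb1 (Mef2d), Klf2 (HDAC1), Bach2 (HDAC2) and Il7r (Mef2c) lost their calls in 4, 6, 5 and 5 of 6 runs that left out a library. S1pr1 passed the test in none of these comparisons, and the difference of its lowest label, Dyrk1, was -0.23 on the log2(FPKM + 1) scale. Tests are from limma, with p-values adjusted over all 12223 genes tested and a threshold of 0.05. The 5 comparisons share the WT libraries. These also entered the choice of Ly6c1 and Igfbp4, so both are left out of the counts against WT.

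Of the other 7 genes 0 rose and 3 fell with the Dyrk1 label, where 11.1% of all genes tested rose and 6.19% fell. The median log2 difference of the 7 genes was -0.23, and that of all genes tested was 0.02. With the HDAC1 label 0 of 7 rose and 1 fell, where 10.2% of all genes rose and 2.32% fell. For HDAC2 1 of 7 rose and 0 fell, where 16.1% rose and 9.41% fell. At an unadjusted p under 0.05, 3 of the 7 genes were past the threshold with the HDAC2 label, where 39.4% of all genes tested were. For Mef2c 1 of 7 rose and 2 fell, where 12.9% rose and 6.06% fell. For Mef2d 1 of 7 rose and 0 fell, where 13.9% rose and 7.95% fell. With the HDAC2 and Mef2d labels the shares were near the background. The median differences of the 7 genes were -0.11 (HDAC1), -0.07 (HDAC2), -0.05 (Mef2c) and -0.10 (Mef2d), and those of all genes lay between 0.04 and 0.05.

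A coarser count is of genes whose 3 libraries all lay on 1 side of all 3 WT libraries. Of the 7 genes 0 lay above WT and 4 below with the Dyrk1 label, where 17.8% of all genes lay above and 12% below. With HDAC1 0 lay above and 1 below (24.8% and 10.8% of all genes), and with HDAC2 2 above and 2 below (28.6% and 18%). With Mef2c 1 lay above and 2 below (23.5% and 12.8%), and with Mef2d 0 above and 1 below (25.9% and 16.3%).

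The balance of the background depends on scaling. With library factors from a median of ratios (RLE scaling), 8.89% of all genes rose and 7.5% fell with the Dyrk1 label. The rising and falling shares under this scaling were 6.23% and 5.86% (HDAC1), 11.5% and 13.3% (HDAC2), 8.79% and 9.02% (Mef2c), and 10% and 11% (Mef2d).

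**Figure D1:**
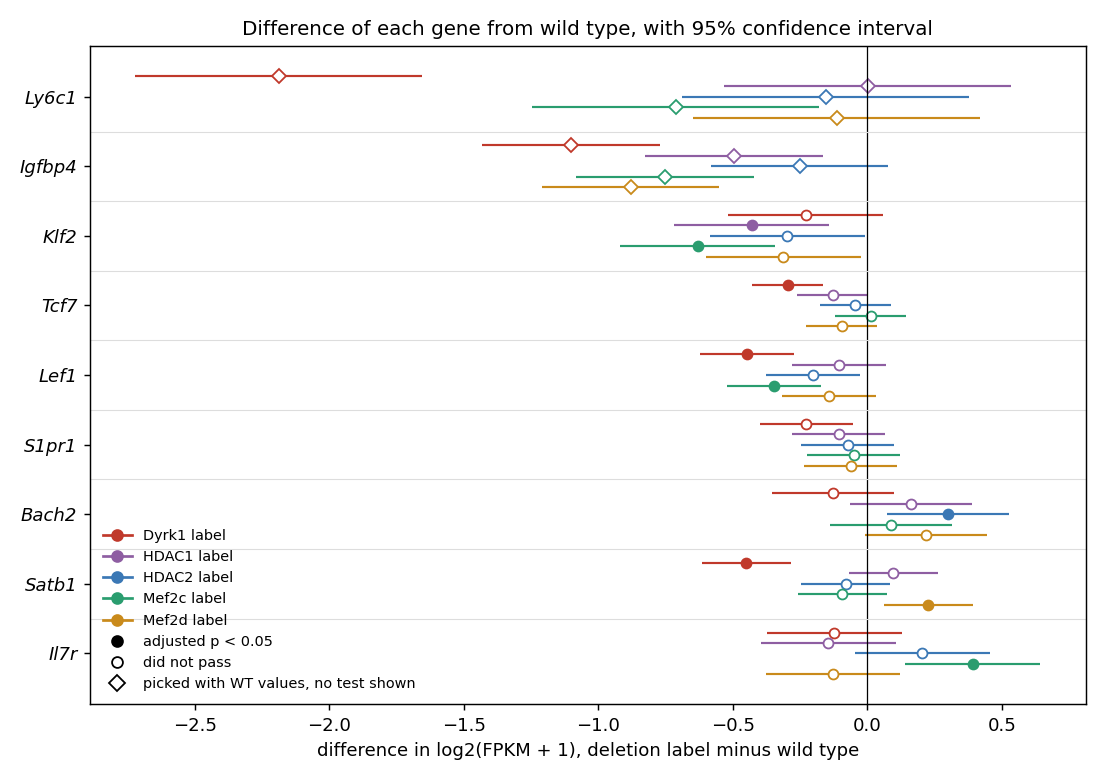
Difference in log2(FPKM + 1) of each of the 9 genes, deletion label minus WT, with its 95% confidence interval from limma (3 libraries a group). Filled circles passed an adjusted p of 0.05, open circles did not, and diamonds mark Ly6c1 and Igfbp4, which were picked with WT values and have no test here. Most points lie left of 0, and the intervals of Ly6c1 are the widest.

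**Figure D2:**
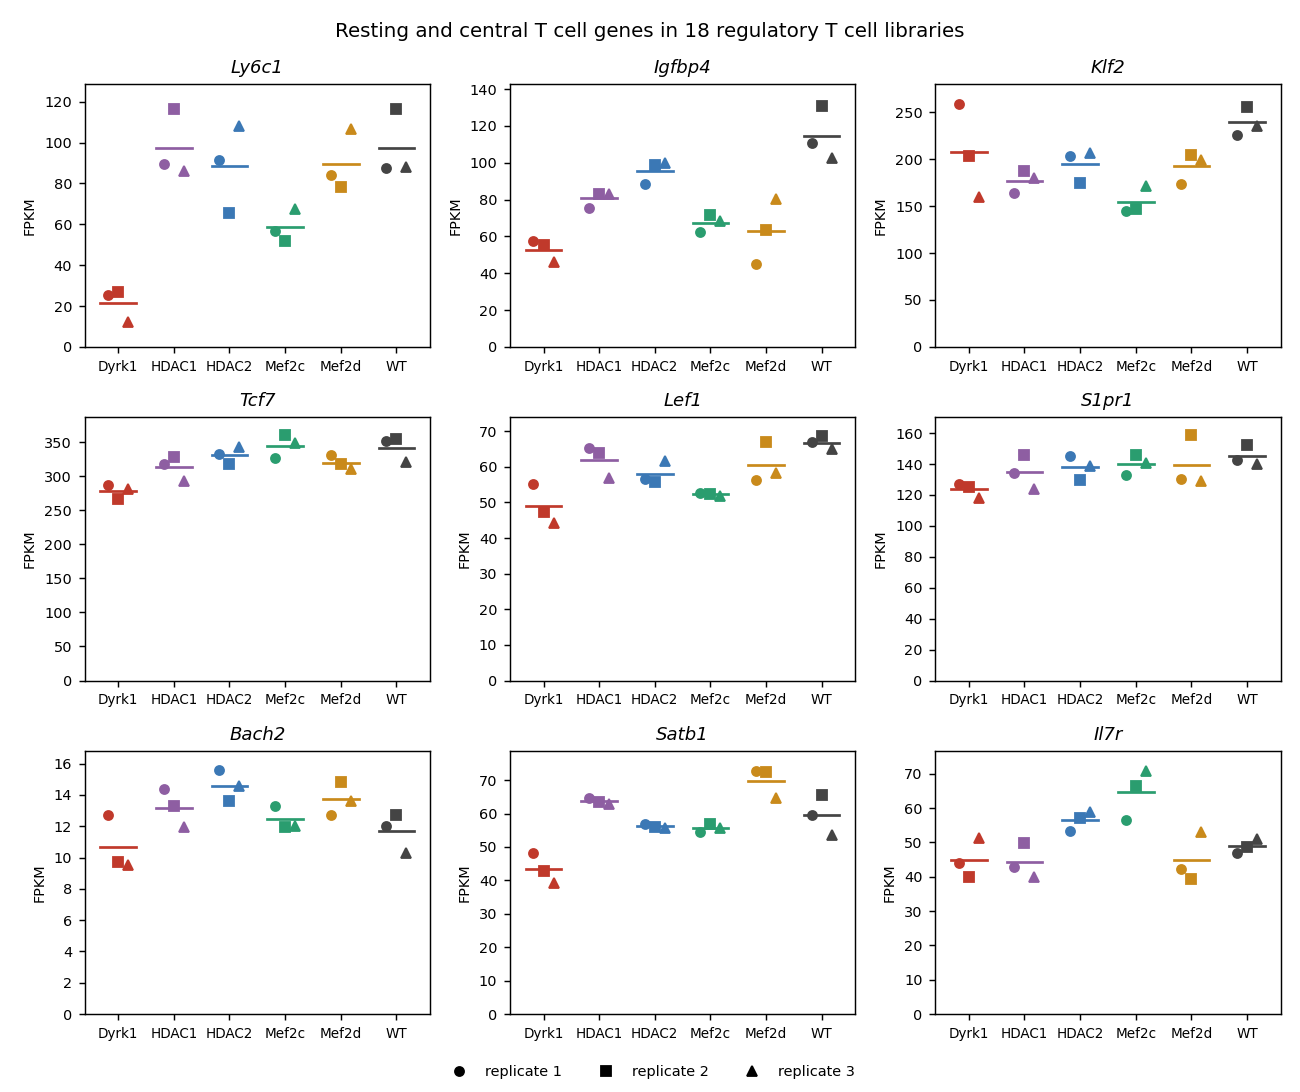
Level of each of the 9 genes in FPKM in all 18 libraries, with 1 point per library, its shape showing the replicate number, and a line at each group mean. The Dyrk1 libraries lie below all others for Ly6c1, Tcf7 and Satb1, and the 3 WT libraries lie above all others for Igfbp4.

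Ly6c1 encodes a small GPI-anchored surface protein of the LY6 family, and its product is used to mark resting and memory T cells in mice. It lies at chr15:75044018-75048830 on the minus strand (mm10, GENCODE M21). Igfbp4 encodes a secreted protein that binds insulin-like growth factors and is found in naive T cells. It lies at chr11:99041244-99054392 on the plus strand. The 250 bases before an annotated start are shown for both, since their levels differed most between groups. They are from RefSeq (GRCm38.p6), at chr15:75048838-75049087 on the minus strand and chr11:99040994-99041243 on the plus strand, with the TATA string TATAAA in capitals.
Ly6c1: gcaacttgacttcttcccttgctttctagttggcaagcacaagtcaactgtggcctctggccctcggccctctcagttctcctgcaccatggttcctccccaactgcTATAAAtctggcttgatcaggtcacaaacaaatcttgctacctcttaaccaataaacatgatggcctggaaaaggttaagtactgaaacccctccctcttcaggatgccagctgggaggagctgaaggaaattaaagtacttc
Igfbp4: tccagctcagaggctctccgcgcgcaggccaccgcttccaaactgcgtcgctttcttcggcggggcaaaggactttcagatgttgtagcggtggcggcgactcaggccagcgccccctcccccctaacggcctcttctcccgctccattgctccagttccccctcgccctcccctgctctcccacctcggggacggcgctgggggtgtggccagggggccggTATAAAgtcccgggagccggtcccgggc
The string starts at -143 in the Ly6c1 window and at -28 in the Igfbp4 window, counted from the start site. It was found on either strand in 13.6% of the 32851 mouse windows of 300 bases (250 before and 50 after each start).

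Ly6c1 had 25.3, 26.8 and 12.4 FPKM in the Dyrk1 libraries, against 87.6, 116 and 88.0 FPKM in the WT libraries. All Dyrk1 libraries lay below all WT libraries, and also below every library of the other labels. The difference was -2.19 on the log2(FPKM + 1) scale (95% interval -2.72 to -1.66), which is a description of the values the gene was picked by. Without Dyrk1 replicate 3 it was -1.85. Of the other labels, Mef2c was lowest, with 56.6, 52.1 and 67.7 FPKM. These 3 libraries lay below all WT libraries, with a difference of -0.71 ± 0.25 (SE). The HDAC1 libraries had 89.5, 116 and 86.3 FPKM, the HDAC2 libraries 91.3, 65.4 and 108 FPKM and the Mef2d libraries 84.2, 78.5 and 107 FPKM. All 3 of these groups overlapped WT. The longest Ly6c1 transcript shares 252 of its 795 words of 50 bases (31.7%) with its neighbour Ly6c2, so reads between these genes could be split and both are uncertain. Ly6c2 had 14.97, 3.63 and 4.12 FPKM in the Dyrk1 libraries, against 2.17, 6.06 and 6.38 FPKM in the WT libraries. These groups overlapped.

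Igfbp4 had 57.3, 55.1 and 46.2 FPKM in the Dyrk1 libraries, against 111, 131 and 103 FPKM in the WT libraries. The groups did not overlap, and the difference was -1.10 (95% interval -1.43 to -0.77), again a description of the values the gene was picked by. With the other labels Igfbp4 had 45.3, 63.7 and 80.6 FPKM in the Mef2d libraries and 62.2, 71.4 and 68.5 FPKM in the Mef2c libraries. The HDAC1 libraries had 75.7, 82.9 and 83.2 FPKM, and the HDAC2 libraries 88.5, 98.8 and 99.9 FPKM. All 15 deletion libraries lay below the lowest WT library. From low to high the group means ran Dyrk1, Mef2d, Mef2c, HDAC1, HDAC2 and WT. The steps from Mef2c to HDAC1, to HDAC2 and to WT were free of overlap, whereas Dyrk1, Mef2d and Mef2c overlapped their neighbours. The differences from WT were -0.88 (Mef2d), -0.75 (Mef2c), -0.50 (HDAC1) and -0.25 (HDAC2), each with an SE of 0.15. They are a description too, because the same WT libraries entered the choice of the gene. Between the HDAC1, HDAC2, Mef2c and Mef2d groups, whose values played no part in the choice, Igfbp4 differed by limma's F test (adjusted p = 0.045). The spread in this test came from all 18 libraries, those of Dyrk1 and WT included. Fitted on these 4 groups alone, Igfbp4 did not pass the F test (adjusted p = 0.0652). The call was lost in 10 of 12 runs that left out a library, all but those without Mef2d replicate 1 or 3, with adjusted p of 0.0637 to 0.13. The call was also lost with no filter on low genes, at least 5 FPKM, RLE scaling, the groups alone or without the 3 B-marker-rich libraries (adjusted p = 0.0512 to 0.0776).

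Of the 5 other LY6 genes tested, none passed with the Dyrk1 or HDAC2 label and 1 rose with each of the other labels. The rising shares of all genes tested with those labels were 10.2% (HDAC1), 12.9% (Mef2c) and 13.9% (Mef2d). Ly6a, which encodes the Sca-1 antigen, averaged 228 ± 34.3 FPKM with the HDAC1 label and 129 ± 30.1 FPKM in WT, a difference of 0.83 (adjusted p = 0.015). The call was lost without WT replicate 1 or HDAC1 replicate 2. Ly6k averaged 3.63 ± 1.10 FPKM with the Mef2d label and 0.600 ± 0.371 FPKM in WT (adjusted p = 0.00192). Of 12 other genes of the IGF-binding protein family and its receptors, 3 were tested. Igf1r, the receptor tyrosine kinase for IGF-1, averaged 13.0 FPKM (HDAC1), 11.3 FPKM (HDAC2), 11.99 FPKM (Mef2c) and 10.1 FPKM (Mef2d), against 7.46 FPKM in WT. It rose with these 4 labels, by 0.73, 0.54, 0.61 and 0.39 on the log2(FPKM + 1) scale, while Igfbp4 was lower. The Mef2d call (adjusted p = 0.0491) was lost without any 1 of the 6 libraries. With the Dyrk1 label Igf1r had 6.81, 7.74 and 11.4 FPKM and did not pass.

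Klf2 and S1pr1 belong to the egress axis. Klf2 lies at chr8:72319033-72321656 on the plus strand and S1pr1 at chr3:115710433-115715072 on the minus strand. The 250 bases before the Klf2 start (chr8:72318812-72319061, plus strand, GRCm38.p6) are shown because the Mef2c and Mef2d labels name MEF2 genes and the window holds a MEF2 string. In endothelial cells MEF2 proteins are known to act on this promoter. The capitals mark the MEF2 string, which is CTA and TAG with 4 free bases between them, at -118, and the GC box GGGCGG of SP and KLF proteins, at -214 and -195.
Klf2: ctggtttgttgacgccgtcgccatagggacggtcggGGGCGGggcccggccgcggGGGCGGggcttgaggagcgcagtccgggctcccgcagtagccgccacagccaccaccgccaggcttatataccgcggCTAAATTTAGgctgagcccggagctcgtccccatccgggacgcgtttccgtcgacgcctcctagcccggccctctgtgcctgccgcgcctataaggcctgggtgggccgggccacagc
On either strand, 3.69% of all mouse windows held the MEF2 string and 35.7% the GC box. Promoter windows were matched for 8 of the 9 genes, 17 windows in all, and none of the other 16 held the MEF2 string. A match is a description of letters, and the files hold no binding data.

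Klf2 had 145, 147 and 171 FPKM in the Mef2c libraries, against 226, 255 and 236 FPKM in the WT libraries. The groups did not overlap. Klf2 fell by 0.63 ± 0.13 (SE) with the Mef2c label (adjusted p = 0.00532), a call that held in every alternative tried. The Mef2d libraries had 174, 205 and 199 FPKM and the HDAC2 libraries 203, 174 and 206 FPKM. Both lay below all WT libraries. Their differences of -0.31 and -0.30 did not pass (adjusted p = 0.11 and 0.115), though the Mef2d one did when those 6 libraries were fitted alone (adjusted p = 0.0465) and the HDAC2 one without the 3 B-marker-rich libraries (adjusted p = 0.0495). Set beside each other, the Mef2c and Mef2d labels differed by -0.32 (adjusted p = 0.322), so a difference between them was not shown. The HDAC1 libraries had 164, 187 and 180.1 FPKM and also lay below WT. Klf2 fell by 0.43 with the HDAC1 label (adjusted p = 0.0496), and this call was lost when any 1 of the 6 libraries was left out (adjusted p = 0.0772 to 0.153).

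With the Dyrk1 label Klf2 spread over a wide range, with 259, 203 and 160.0 FPKM. The highest was replicate 1, above every WT library, and the other 2 lay below them. The difference was -0.23 (95% interval -0.52 to 0.06, adjusted p = 0.259). Replicate 1 is the library with the highest B cell markers. Their summed level was 423 FPKM there and 32.4 to 38.2 FPKM in the other 2 Dyrk1 libraries, against 32.3 to 54.4 FPKM in WT, and none of the 8 markers was at 0 in any library. Cd8a was also high there, at 22.4 FPKM, against 0.651 to 4.27 FPKM in WT. Without that library Klf2 fell by 0.40 (adjusted p = 0.0265), and without all 3 libraries rich in B cell markers it also fell by 0.40 (adjusted p = 0.0286). B cells also express Klf2, and their part in the value of replicate 1 was not tested.

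**Figure D3:**
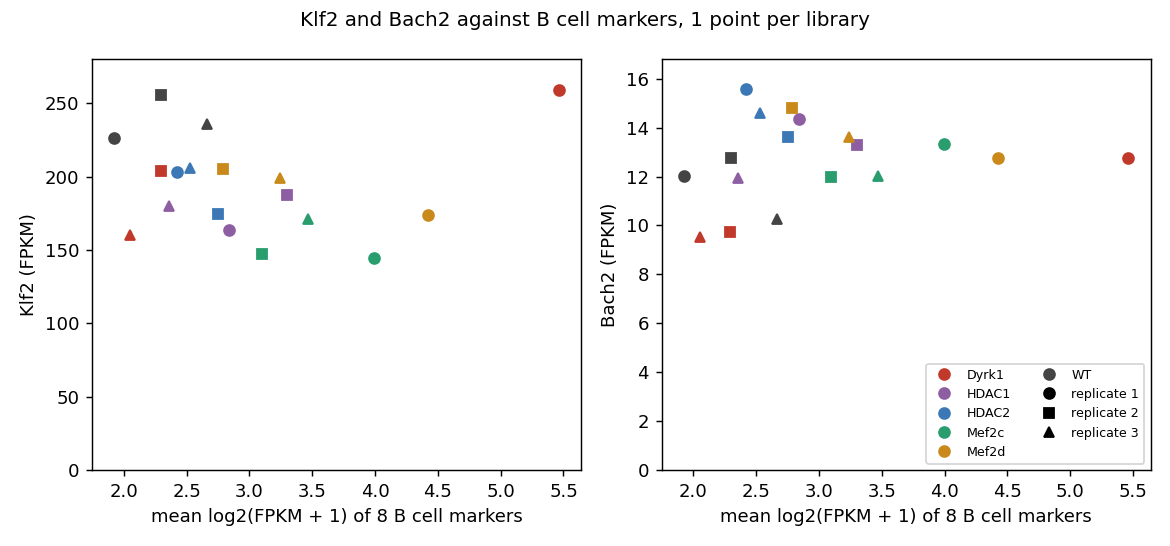
Klf2 (left) and Bach2 (right) in FPKM against the mean log2(FPKM + 1) of 8 B cell markers, with 1 point per library. Dyrk1 replicate 1 stands apart at 5.46, with 259 FPKM of Klf2 and 12.7 FPKM of Bach2, and the other 2 Dyrk1 libraries lie at the left of each panel, at 2.30 and 2.05.

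S1pr1 had 127, 125 and 118 FPKM in the Dyrk1 libraries, against 143, 152 and 139.9 FPKM in the WT libraries. These groups did not overlap. The difference of -0.23 ± 0.08 (SE) missed the threshold (adjusted p = 0.065). In the other deletion groups S1pr1 ranged from 124 to 159 FPKM and each group overlapped WT, with differences of -0.11 (HDAC1), -0.07 (HDAC2), -0.05 (Mef2c) and -0.06 (Mef2d). Across the 6 groups the highest mean was only 1.17 times the lowest, the narrowest span of the 9 genes.

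Of the 7 other egress genes tested, 3 fell with the Dyrk1 label, 2 with the HDAC1 label and 2 with the HDAC2 label. None passed with the Mef2c and Mef2d labels. The falling shares of all genes tested were 6.19% (Dyrk1), 2.32% (HDAC1), 9.41% (HDAC2), 6.06% (Mef2c) and 7.95% (Mef2d). Ccr7, the chemokine receptor that guides T cells into lymph nodes, had 172, 117 and 99.3 FPKM in the Dyrk1 libraries, against 220, 213 and 183 FPKM in the WT libraries. It fell by 0.70 (adjusted p = 0.0093) and did not overlap. This call held in all 6 runs that left out a library. Itgb7, an integrin subunit for gut homing, fell by 0.22 (adjusted p = 0.0272) and lost the call without WT replicate 1 or 3 or Dyrk1 replicate 1 or 2. With the HDAC1 label Ccr7 fell by 0.51 (adjusted p = 0.0471), a call lost in all 6 runs, and S1pr4, another sphingosine-1-phosphate receptor, fell by 0.20. With the HDAC2 label S1pr4 fell by 0.14 and Gnai2, a G protein subunit behind these receptors, by 0.16. The S1pr4 call of HDAC1 was lost without WT replicate 3 or HDAC1 replicate 1 or 2, and both HDAC2 calls in every run but that without WT replicate 2. Foxo1, the factor that drives Klf2 in T cells, passed with no label and averaged 53.1 FPKM with the Dyrk1 label and 50.6 FPKM in WT.

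Tcf7 and Lef1 encode related DNA-binding factors that take part in Wnt and beta-catenin signalling and keep T cells in a less differentiated state. Tcf7 lies at chr11:52252371-52283014 on the minus strand and Lef1 at chr3:131110471-131224356 on the plus strand. The 250 bases before the first Lef1 start (chr3:131110047-131110296, plus strand, GRCm38.p6) are shown because Lef1 fell with 2 labels. The capitals mark a GC box at -32.
Lef1: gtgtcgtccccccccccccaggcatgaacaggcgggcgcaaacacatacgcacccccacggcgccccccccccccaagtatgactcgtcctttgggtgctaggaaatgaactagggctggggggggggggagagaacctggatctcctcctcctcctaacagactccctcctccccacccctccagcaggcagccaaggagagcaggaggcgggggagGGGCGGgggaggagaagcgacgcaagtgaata
No MEF2 string lies in the 4 Lef1 windows. The TCF and LEF string CTTTGA was found at -180 and -120 of window 4 of Lef1, and 16% of all mouse windows held it.

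Lef1 had 55.3, 47.3 and 44.2 FPKM in the Dyrk1 libraries, against 66.9, 68.5 and 64.9 FPKM in the WT libraries. The groups did not overlap, and Lef1 fell by 0.45 ± 0.08 (SE) with the Dyrk1 label (adjusted p = 0.00346). In the Mef2c libraries it had 52.8, 52.3 and 51.9 FPKM, a narrow range below all WT libraries. Lef1 fell by 0.35 ± 0.08 with the Mef2c label (adjusted p = 0.01), and this call held in every alternative tried. With the HDAC2 label it had 56.5, 55.6 and 61.6 FPKM, which also lay below WT. The difference of -0.20 did not pass (adjusted p = 0.0802), but passed with RLE scaling (adjusted p = 0.0345) and with length and GC trends removed (adjusted p = 0.0403). The Mef2d libraries had 56.3, 67.0 and 58.3 FPKM and the HDAC1 libraries 65.2, 64.0 and 57.0 FPKM. Both groups overlapped WT and neither passed.

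Tcf7 had 287, 266 and 282 FPKM in the Dyrk1 libraries, against 352, 354 and 320.1 FPKM in the WT libraries. All 3 Dyrk1 libraries lay below every other library of the study. Tcf7 fell by 0.30 ± 0.06 (SE) with this label (adjusted p = 0.00653). With length and GC trends removed the difference was -0.20 (adjusted p = 0.0835). In the other deletion groups it ranged from 293 to 360.0 FPKM and overlapped WT, with differences of -0.13 (HDAC1), -0.05 (HDAC2), 0.01 (Mef2c) and -0.10 (Mef2d), and none passed. The intervals of the HDAC2, Mef2c and Mef2d labels reached no lower than -0.18, -0.12 and -0.23. With the 6 Dyrk1 and WT libraries fitted alone, Tcf7, Lef1 and Satb1 all missed the threshold (adjusted p = 0.127, 0.101 and 0.114), and 58 genes in all passed, against 2116 in the fit of 18 libraries.

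Of 10 other genes of the TCF and LEF partners tested, 1 rose and 1 fell with the Dyrk1 label. With the other labels 2 rose and 0 fell (HDAC1) and 3 rose and 0 fell (HDAC2). With Mef2c 2 rose and 2 fell, and with Mef2d 2 rose and 1 fell. Of all genes tested, 11.1% rose and 6.19% fell with Dyrk1, and 10.2% and 2.32% with HDAC1. The rising and falling shares were 16.1% and 9.41% (HDAC2), 12.9% and 6.06% (Mef2c), and 13.9% and 7.95% (Mef2d). With the Dyrk1 and Mef2d labels the counts were near the background. Axin2, a scaffold of beta-catenin turnover that TCF and LEF factors switch on, had 10.96, 15.2 and 13.0 FPKM in the Dyrk1 libraries, against 9.34, 9.02 and 7.15 FPKM in the WT libraries. It rose by 0.56 with this label (adjusted p = 0.0041), with Tcf7 and Lef1 lower. It rose with the other 4 labels too, by 0.35, 0.51, 0.54 and 0.38, all against the same WT libraries. The HDAC1 call was lost without WT replicate 3 or any HDAC1 library, and the Mef2d call without WT replicate 3 or Mef2d replicate 1 or 2. Tle1, a Groucho-type corepressor that binds TCF proteins, had 0.690, 0.575 and 0.671 FPKM in the Mef2d libraries and 0.821, 0.902 and 0.816 FPKM in the Mef2c libraries, against 3.49, 3.97 and 3.14 FPKM in the WT libraries. It fell by 1.46 (adjusted p = 2.71e-08) and 1.29 (adjusted p = 7.64e-08). Ctnnb1, which encodes beta-catenin, passed with no label.

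Bach2 encodes a repressor that pairs with small MAF proteins and restrains effector genes in Treg. It lies at chr4:32238804-32586108 on the plus strand. Bach2 had 15.6, 13.6 and 14.6 FPKM in the HDAC2 libraries, against 12.02, 12.7 and 10.3 FPKM in the WT libraries. The groups did not overlap, and Bach2 rose by 0.30 ± 0.11 (SE) with the HDAC2 label (adjusted p = 0.0496). The call was lost in 5 of 6 runs that left out a library (adjusted p = 0.0588 to 0.218), all but the run without WT replicate 2. With RLE scaling the adjusted p was 0.0901. All 5 plasma cell markers also rose with the HDAC2 label, with summed levels of 660.04 to 2090.4 FPKM in the HDAC2 libraries and 190.03 to 491 FPKM in the WT libraries, and their part in Bach2 was not tested. The Mef2d libraries had 12.7, 14.8 and 13.6 FPKM, the HDAC1 libraries 14.4, 13.3 and 11.9 FPKM and the Mef2c libraries 13.3, 11.97 and 12.01 FPKM. All overlapped WT, and none passed. The Dyrk1 libraries had 12.7, 9.72 and 9.52 FPKM, and the highest was again replicate 1, the library with the most B cell marker RNA. The difference was -0.13 (adjusted p = 0.434). B cells express Bach2, and their part in this value was not tested.

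The 6 other genes listed with BACH2 encode BACH1, small MAF proteins, PRDM1 and BATF. Of these 1 rose with the Dyrk1 label, 2 each with the HDAC1, HDAC2 and Mef2c labels and 1 with the Mef2d label. None fell. The rising shares of all genes tested were 11.1% (Dyrk1), 10.2% (HDAC1), 16.1% (HDAC2), 12.9% (Mef2c) and 13.9% (Mef2d). Prdm1, which encodes the effector factor BLIMP-1 that BACH2 represses, had 9.62, 8.51 and 9.36 FPKM in the Dyrk1 libraries, against 7.53, 6.97 and 6.45 FPKM in the WT libraries. It rose by 0.35 (adjusted p = 0.0185), a call lost without WT replicate 3 or Dyrk1 replicate 3. Bach1 averaged 7.16 FPKM (HDAC1), 7.45 FPKM (HDAC2), 6.52 FPKM (Mef2c) and 7.71 FPKM (Mef2d), against 5.13 FPKM in WT. It rose with these 4 labels, though the Mef2c call was lost without WT replicate 1 or 3 or Mef2c replicate 1 or 2, and the HDAC1 call without WT replicate 3. Mafg averaged 7.44 FPKM (HDAC1), 7.90 FPKM (HDAC2) and 7.54 FPKM (Mef2c), against 5.90 FPKM in WT. It rose with these 3 labels, and each call held in all 6 runs.

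Satb1 encodes a chromatin organiser that is high in thymocytes and resting T cells. It lies at chr17:51736187-51833290 on the minus strand. Satb1 had 48.3, 42.7 and 39.2 FPKM in the Dyrk1 libraries, against 59.6, 65.6 and 53.7 FPKM in the WT libraries. The Dyrk1 libraries lay below every other library of the study, and Satb1 fell by 0.45 ± 0.08 (SE) with this label (adjusted p = 0.00237). The Mef2d libraries were the highest group, with 72.6, 72.3 and 64.5 FPKM, and the lowest of them overlapped WT. Satb1 rose by 0.23 ± 0.08 with the Mef2d label (adjusted p = 0.0482). The call was lost without WT replicate 1, WT replicate 3, Mef2d replicate 1 or Mef2d replicate 2 (adjusted p = 0.0974 to 0.232), and with length and GC trends removed the difference turned to -0.04. The HDAC1 libraries had 64.7, 63.4 and 62.8 FPKM, the HDAC2 libraries 56.9, 55.9 and 55.7 FPKM and the Mef2c libraries 54.4, 57.0 and 55.6 FPKM. All overlapped WT and none passed. The HDAC2 difference of -0.08 became -0.35 with length and GC trends removed (adjusted p = 0.024).

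Il7r encodes the IL-7 receptor alpha chain. Treg carry little of it on average, and central Treg carry more. It lies at chr15:9505788-9530176 on the minus strand. Il7r had 56.6, 66.4 and 70.8 FPKM in the Mef2c libraries, against 46.8, 48.7 and 50.9 FPKM in the WT libraries. The groups did not overlap, and Il7r rose by 0.39 ± 0.12 (SE) with the Mef2c label (adjusted p = 0.031). The call was lost in 5 of 6 runs that left out a library, all but the run without Mef2c replicate 1 (adjusted p = 0.0578 to 0.0999). With RLE scaling the adjusted p was 0.0772. The summed level of 6 red cell genes was 15.1 to 52.5 FPKM in the Mef2c libraries and 13.2 to 55.7 FPKM in the Mef2d libraries, against 25.6 to 389 FPKM in the WT libraries. One of the 5 red cell genes tested, Hbb-bt, fell with the Mef2c label (adjusted p = 0.0126), and averaged 0.213 FPKM there and 16.4 FPKM in WT. The part of red cell RNA in Il7r was not tested. The HDAC2 libraries had 53.2, 57.2 and 58.8 FPKM, which also lay above WT, and the difference of 0.20 did not pass (adjusted p = 0.215). The Dyrk1 libraries had 43.9, 39.8 and 51.2 FPKM, the HDAC1 libraries 42.8, 49.7 and 40.03 FPKM and the Mef2d libraries 42.3, 39.4 and 53.0 FPKM. These groups overlapped WT and none passed.

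Of 11 other genes of IL-7 receptor signalling tested, 2 rose and 2 fell with the Mef2c label. With this label 12.9% of all genes tested rose and 6.06% fell. The rising and falling shares with the other labels were 11.1% and 6.19% (Dyrk1) and 10.2% and 2.32% (HDAC1). They were 16.1% and 9.41% with HDAC2, and 13.9% and 7.95% with Mef2d. Jak3, the kinase bound to the shared gamma chain, averaged 112 ± 9.66 FPKM with the Mef2c label and 81.4 ± 5.48 FPKM in WT, and rose by 0.45 (adjusted p = 0.00389). Stat5a, a transcription factor below it, averaged 34.5 ± 0.308 FPKM with this label and 40.3 ± 0.875 FPKM in WT, and fell by 0.22 (adjusted p = 0.0113). Both calls held in all 6 runs that left out a library. Socs1, a feedback inhibitor, rose by 0.44 (adjusted p = 0.0493), a call lost in every run but that without WT replicate 2. Crlf2, the TSLP receptor chain that pairs with IL-7R alpha, averaged 35.1 ± 1.97 FPKM with the Mef2d label and 40.1 ± 2.43 FPKM with the Mef2c label, against 52.0 ± 5.07 FPKM in WT. It fell by 0.55 (adjusted p = 0.000963) and 0.36 (adjusted p = 0.011), and the Mef2c call was lost without Mef2c replicate 1. With the Mef2d label 2 genes rose, Bcl2 and Mcl1, both of which keep mitochondria intact. The HDAC2 label had 2 that rose, Gfi1 and Bcl2, and none that fell. The Bcl2 and Gfi1 calls were lost without WT replicate 3 and without 1 deletion library (HDAC2 replicate 1 or Mef2d replicate 2), and the Mcl1 call of Mef2d without WT replicate 1 or 3 or Mef2d replicate 2 or 3. With the Dyrk1 label only Mcl1 passed, with 299.6, 271 and 254 FPKM in the Dyrk1 libraries and 215, 223 and 198 FPKM in the WT libraries, and it rose by 0.37 (adjusted p = 0.00371). None passed with the HDAC1 label.

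The direct comparisons set the related proteins against each other. Between the Mef2c and Mef2d labels, Il7r was higher by 0.52 ± 0.12 (adjusted p = 0.0219) and Satb1 lower by 0.32 ± 0.08 (adjusted p = 0.0342) with Mef2c. These were 2 of 9 genes, where 3.06% of all genes tested passed. Neither pair of groups overlapped. In all, 1 of 9 genes lay wholly higher and 4 wholly lower with Mef2c, where 10.2% and 8.45% of all genes did. The Il7r call was lost without Mef2c replicate 2 or 3 or Mef2d replicate 1 or 2 (adjusted p = 0.0814 to 0.128), and the Satb1 call without any library but Mef2d replicate 3 (adjusted p = 0.0786 to 0.151). Between the HDAC1 and HDAC2 labels 0 of 9 genes passed by limma, where 1.5% of all genes did, and 2 of 9 had an unadjusted p under 0.05, as did 13.5% of all genes. Wholly higher with HDAC1 was 1 of 9 genes and wholly lower were 2, where 12.9% and 10.3% of all genes were. Those with the unadjusted p under 0.05 were Il7r, lower with HDAC1 by 0.35 (95% interval -0.60 to -0.10), and Satb1, higher by 0.18 (95% interval 0.01 to 0.34). Over the HDAC1, HDAC2, Mef2c and Mef2d labels together, 3 of 9 genes differed by limma's F test, Il7r (adjusted p = 0.0111), Satb1 (adjusted p = 0.0251) and Igfbp4, where 11.8% of all genes did. Il7r held in all 12 runs that left out a library, and Satb1 was lost without HDAC2 replicate 3, Mef2c replicate 1 or 3, or Mef2d replicate 1 or 2 (adjusted p = 0.0525 to 0.0916).

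The other genes of resting and central T cells were counted in a list of 16. With the Dyrk1 label 0 rose and 6 fell, and the median log2 difference was -0.14. Of all genes tested with this label 11.1% rose and 6.19% fell, but the list was chosen with earlier results of these data known. Among the 6 that fell were Nsg2, Actn1, Dapl1 and, counted with the egress genes too, Ccr7 and Itgb7. Between 4 and 7 passed when single libraries were left out. Nsg2 had 94.0, 85.0 and 76.5 FPKM in the Dyrk1 libraries, against 159, 163 and 145 FPKM in the WT libraries, and fell by 0.86 (adjusted p = 3.84e-05). Actn1, which encodes the actin crosslinker alpha-actinin 1, had 42.1, 36.8 and 38.3 FPKM in the Dyrk1 libraries, against 69.4, 72.5 and 61.8 FPKM in the WT libraries, and fell by 0.78 (adjusted p = 0.000116). Both groups were clear of WT and both calls held in all 6 runs. Dapl1 had 13.3, 6.37 and 2.70 FPKM in the Dyrk1 libraries, with the highest in replicate 1, and 12.1, 19.3 and 15.9 FPKM in the WT libraries. It overlapped WT, and its call (adjusted p = 0.0334) was lost without WT replicate 2 or 3 or Dyrk1 replicate 2 or 3. With the 6 libraries fitted alone 2 of the 16 passed.

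With the other labels few genes of this list fell. With the HDAC1 label 2 rose (Txk, Klf3) and 2 fell (Ccr7, Nsg2). With the HDAC2 label 3 rose (Txk, Klf3, Bcl2), with the Mef2c label 2 (Cd27, Txk) and with the Mef2d label 2 (Bcl2, Txk), and none fell. The medians were -0.02 (HDAC1), 0.05 (HDAC2), 0.10 (Mef2c) and 0.08 (Mef2d). Of all genes tested 10.2% rose and 2.32% fell with HDAC1, and 16.1% and 9.41% with HDAC2. The rising and falling shares were 12.9% and 6.06% (Mef2c), and 13.9% and 7.95% (Mef2d). The rising counts of the list were near these shares. Txk, a TEC-family kinase of T cell receptor signalling, averaged 28.3 FPKM (HDAC1), 30.5 FPKM (HDAC2), 26.5 FPKM (Mef2c) and 28.0 FPKM (Mef2d), against 22.2 FPKM in WT. Its HDAC2 call held in all 6 runs, as did Klf3 with HDAC2. The other calls named here were each lost when WT replicate 3 was left out, and the Ccr7 and Nsg2 calls of HDAC1 in all 6 runs. Removing length and GC trends moved the counts from 4 to 0 (HDAC1), 3 to 5 (HDAC2), 2 to 1 (Mef2c) and 2 to 1 (Mef2d).

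**Figure D4:**
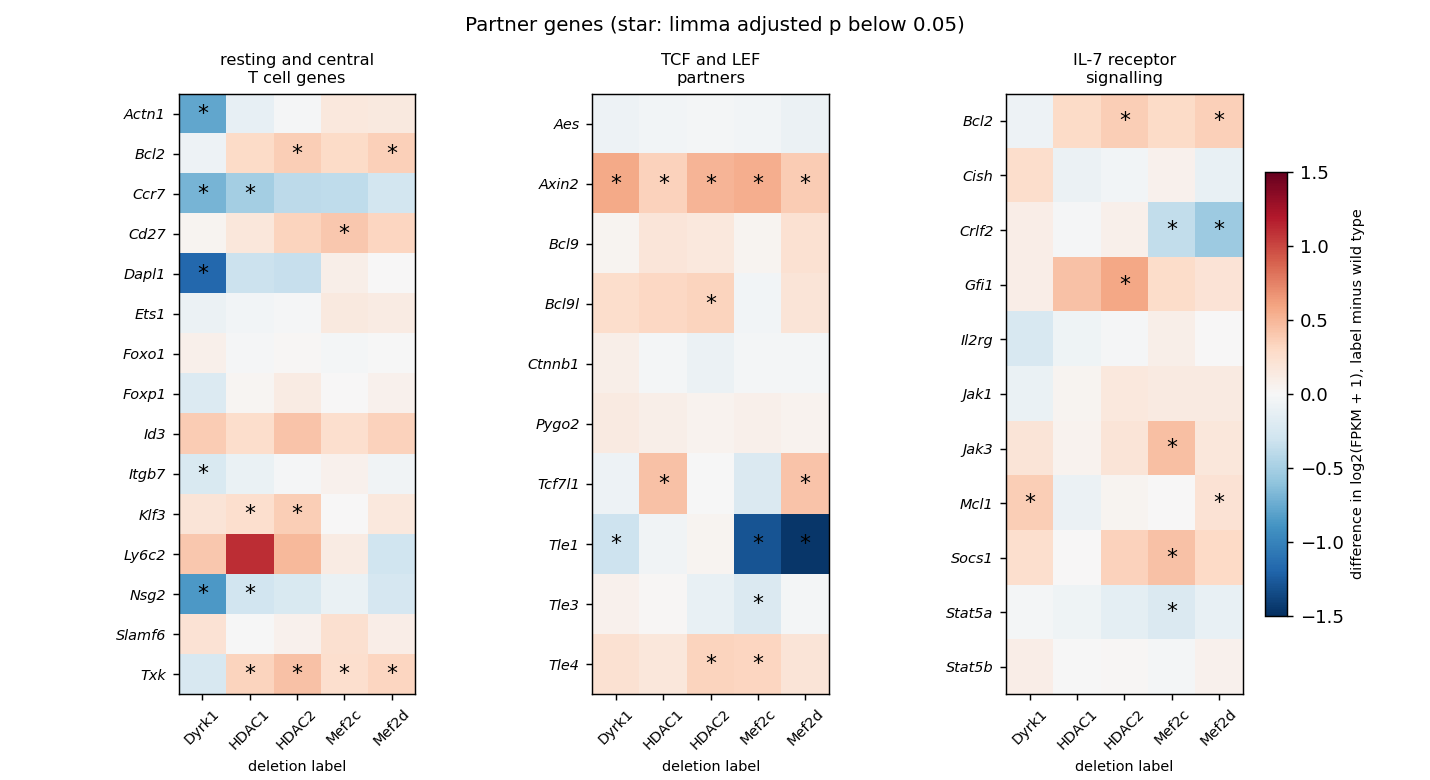
Difference in log2(FPKM + 1), deletion label minus WT, for 15 of the 16 other resting and central T cell genes, the 10 TCF and LEF partners tested and 11 genes of IL-7 receptor signalling (red higher, blue lower). Stars mark an adjusted p under 0.05 from limma. Nsg2, Actn1 and Ccr7 are blue with the Dyrk1 label, Tle1 is darkest blue with the Mef2c and Mef2d labels, and Axin2 is red with all 5 labels.

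Proliferation genes moved in some of the same libraries. Of 15 cell cycle genes, 2 rose and 0 fell with the Dyrk1 label. None rose and 14 fell with the HDAC2 label, 9 fell with the Mef2c label and 11 with the Mef2d label. With the HDAC1 label none passed. Of all genes tested 11.1% rose and 6.19% fell with the Dyrk1 label, so its rising count was near the background. The falling shares were 9.41% (HDAC2), 6.06% (Mef2c), 7.95% (Mef2d) and 2.32% (HDAC1). Without the 3 B-marker-rich libraries most of the Mef2c and Mef2d calls were lost, and that of Mcm2, part of the DNA replication helicase, was kept with both. The summed level was 796 to 866 FPKM in the Dyrk1 libraries, 454 to 595 FPKM in the HDAC1 libraries, 341 to 402 FPKM in the HDAC2 libraries, 424 to 467 FPKM in the Mef2c libraries and 408 to 472 FPKM in the Mef2d libraries, against 483 to 785 FPKM in the WT libraries. Over the 18 libraries, Pearson's r with the mean of this list was -0.77 (Bach2), -0.64 (Tcf7), -0.59 (Ly6c1), -0.58 (Satb1) and -0.51 (S1pr1). It was -0.42 (Il7r), -0.23 (Igfbp4), -0.22 (Lef1) and 0.34 (Klf2). These values share libraries, groups and depth and are a description. The part of proliferation in the levels of the 9 genes was not tested.

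Among the 9 genes over 18 libraries, the highest r was 0.84 between Ly6c1 and Satb1. It was 0.80 between Ly6c1 and Lef1, 0.73 between Lef1 and Satb1 and 0.72 between Tcf7 and S1pr1. The values with Ly6c1 draw on the Dyrk1 and WT libraries it was picked by and are a description. With the group means taken off, Ly6c1 had r of 0.38 with Satb1 and 0.45 with Lef1. Il7r was lowest, with -0.36 against Klf2. With the group means taken off, the highest was 0.81 between Lef1 and Bach2, then 0.78 between Ly6c1 and Klf2, which had 0.18 with the group means left in. Among 7778 other genes averaging at least 5 FPKM, the gene most like each member over the 18 libraries was Cd5 for Ly6c1 (r = 0.93), Gabrr2 for Satb1 (r = 0.92), Foxp1 for Bach2 (r = 0.92) and Mpp1 for Tcf7 (r = 0.91). It was Lsm4 for Klf2 (r = 0.86), Vps37b for S1pr1 (r = 0.86), Acss2 for Lef1 (r = 0.85), Selplg for Igfbp4 (r = 0.83) and Ctse for Il7r (r = 0.80). With group means taken off, Foxp1 was still the gene most like Bach2 (r = 0.91), whereas for Il7r it was the haemoglobin gene Hba-a1 (r = 0.79). For the picked genes it was then Rac2 for Ly6c1 (r = 0.94) and Tnfaip3 for Igfbp4 (r = 0.83).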

How the data were processed

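RNA of sorted Treg was sequenced in 18 libraries, 3 in each of 6 groups. The authors deposited 1 table of 35275 Ensembl identifiers, 34490 of them with a symbol. The deposited values were read as FPKM from the values themselves, since no header names the unit. STAR, HTSeq and mm10 stand in the submitters' processing notes, without versions, and the annotation and strand setting are not given in the sources used here. Depth, recovered from the smallest steps of the values, was 15.9 to 24.1 M reads, and p-values cover the spread between libraries only.

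From these values log2(FPKM + 1) was tested with limma 3.58.1 in R 4.3.3, in 1 fit of all 18 libraries with a mean per group and a variance trend, over the 12223 genes that reached 1 FPKM in 3 or more libraries. Log2 differences understate the change of low genes. P-values were adjusted by Benjamini-Hochberg over all genes tested, and the script was tested on simulated data. The 9 genes and the gene lists were chosen with earlier results of these data known. Named genes were the 9, the genes most like each of them and, per list and comparison, those that passed with the smallest p. Alternatives were another pseudocount (0.1), no filter or at least 5 FPKM, RLE scaling, the replicate number as a block, the groups alone, length and GC trends removed, no libraries rich in B cell markers, and each library left out. Labels name no shared batch or animal. Same-numbered libraries correlated above 0.1 in all 3 pairs for Mef2c with Mef2d (0.31 to 0.396) and HDAC1 with HDAC2 (0.132 to 0.428). So did those of HDAC2 with WT (0.16 to 0.325). The main tests used no pairing, and the replicate block was run only as an alternative. The runs on list genes were added after seeing the data. Promoter sequences came from RefSeq (GRCm38.p6) and positions from GENCODE M21 (mm10). A gene counted in the lists is not reported here by name.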

Additional observations from a re-analysis of the deposited data

Results flagged for a closer look

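Satb1 and Il7r were singled out because the Mef2c and Mef2d labels, each set against the same WT libraries, differed from each other by limma's test. Satb1 differed by -0.32 (adjusted p = 0.0342), with 54.4 to 57.0 FPKM in the Mef2c libraries and 64.5 to 72.6 FPKM in the Mef2d libraries. Il7r differed by 0.52 (adjusted p = 0.0219), with 56.6 to 70.8 FPKM in the Mef2c libraries and 39.4 to 53.0 FPKM in the Mef2d libraries. With the 3 B-marker-rich libraries left out the differences were -0.27 for Satb1 (adjusted p = 0.15) and 0.57 for Il7r (adjusted p = 0.063), and neither passed. Groups of 3 libraries are too small for a check of single outlying libraries.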

How the results depend on the processing

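The counts of genes that passed, here with Ly6c1 and Igfbp4 included except for the Dyrk1 label, moved under several alternatives, and the cause was not tested. With the HDAC1 label 2 passed, against 1 with a pseudocount of 0.1, 0 with no filter, 0 with length and GC trends removed and 1 with the replicate block. With the HDAC2 label 1 passed, against 0 with a pseudocount of 0.1, no filter or the groups alone, and 2 with length and GC trends removed or without the B-marker-rich libraries. With the Mef2d label only Satb1 passed. Its call was lost with no filter, RLE scaling, length and GC trends removed, the groups alone or without those libraries (limma, adjusted p = 0.075 to 0.806). With the groups alone Klf2 passed in its place. With the Dyrk1 label 3 passed, against 0 with the groups alone. Between Mef2c and Mef2d 2 passed, against 1 with length and GC trends removed and 0 with the groups alone or without those libraries. The F test called 3, against 1 without them.

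When single libraries were left out, the counts ran from 3 to 4 (Dyrk1), 0 to 0 (HDAC1) and 0 to 1 (HDAC2). They ran from 0 to 0 (HDAC1 against HDAC2), 0 to 2 (Mef2c against Mef2d) and 1 to 3 (F test). With the Mef2c label the Klf2 and Lef1 calls held in all 6 runs and the Il7r call in 1. The Satb1 call of Mef2d held in 2 of 6 runs.

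Signs turned for differences that had not passed, and for Satb1 with the Mef2d label. With RLE scaling Ly6c1 (HDAC1) was -0.068 and Tcf7 (Mef2c) -0.043. With length and GC trends removed Satb1 was -0.16 (HDAC1) and -0.044 (Mef2d), Tcf7 0.072 (HDAC2), S1pr1 0.0028 (HDAC2) and -0.016 (Mef2c against Mef2d), and Ly6c1 0.0056 (Mef2d). Without the B-marker-rich libraries Igfbp4 was -0.034 (Mef2c against Mef2d). With single libraries left out, Ly6c1 ran from -0.13 to 0.13 (HDAC1), -0.32 to 0.044 (HDAC2), -0.24 to 0.019 (Mef2d) and -0.042 to 0.32 (HDAC1 against HDAC2). Igfbp4 ran from -0.0899 to 0.32 and S1pr1 from -0.041 to 0.11 between Mef2c and Mef2d, S1pr1 from -0.093 to 0.025 between HDAC1 and HDAC2, and Tcf7 from -0.035 to 0.051 (Mef2c).

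Of 45 same-numbered pairs, 18 correlated above 0.1, and 8 of 18 libraries correlated best with their own number. For Mef2c with Mef2d, HDAC1 with HDAC2 and HDAC2 with WT, all 3 same-numbered pairs correlated above 0.1. In these comparisons the replicate block changed no call of the 9 genes. The block fits a shared effect of the replicate number over all 18 libraries, so it cannot show what pairing within these comparisons would do. For HDAC1 with WT the same-numbered pairs had r of 0.297, 0.464 and 0.0667. There the block lost the Klf2 call of the HDAC1 label (limma, adjusted p = 0.0732). In the remaining comparisons the block changed no call. Over all genes, calls ranged from 58 (groups alone) to 2595 (without Dyrk1 replicate 1) with the Dyrk1 label. Without WT replicate 3 they fell to 421 (HDAC1, of 1533), 1326 (HDAC2, of 3123), 1150 (Mef2c, of 2322) and 1077 (Mef2d, of 2677).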

Other observations

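Genes of activated and effector Treg were counted beside the resting genes. Of 21, 3 rose and 1 fell with the Dyrk1 label, and 1 rose and 1 fell with HDAC1. With HDAC2 0 rose and 5 fell, with Mef2c 1 rose and 4 fell, and with Mef2d 0 rose and 4 fell. Of all genes tested, 11.1% rose and 6.19% fell with Dyrk1, and 10.2% and 2.32% with HDAC1. The rising and falling shares were 16.1% and 9.41% (HDAC2), 12.9% and 6.06% (Mef2c), and 13.9% and 7.95% (Mef2d). With the Dyrk1 label the counts were near the background. Lgals1, which encodes the lectin galectin-1, averaged 139 ± 9.66 FPKM with the HDAC2 label and 260.04 ± 40.9 FPKM in WT (SD, n = 3 each). It fell by 0.89 with HDAC2, 0.66 with Mef2c and 0.66 with Mef2d (limma, adjusted p = 0.00242, 0.00618 and 0.00677). Klrg1, a receptor of terminally differentiated Treg, averaged 9.13 ± 1.86 FPKM with the Dyrk1 label and 17.9 ± 1.08 FPKM in WT, and fell by 0.92 (limma, adjusted p = 0.00439), while Prdm1 was higher there. Each of these Lgals1 and Klrg1 calls held in all 6 runs that left out a library.

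Mki67, a marker of dividing cells, averaged 45.5 ± 7.66 FPKM with the Dyrk1 label and 19.5 ± 5.45 FPKM in WT (SD, n = 3 each). It rose by 1.204 (limma, adjusted p = 0.00121). Of the 15 cell cycle genes listed, Mki67 among them, 2 rose with this label and 13 did not pass, where 11.1% of all genes tested rose.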
